A study of Mus musculus with 10 samples.

Results

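The mouse cytochrome P450 genes were followed through ATAC-seq peak lists of 10 liver tumour libraries. ATAC-seq cuts and tags open DNA with a transposase, so a peak marks a stretch of accessible chromatin. The genes were chosen by name alone, as the protein-coding RefSeq genes whose symbol is Cyp followed by a number, letters and a number. This gave 93 genes out of 21631 protein-coding genes on the autosomes and the X chromosome (GRCm38.p6, the coordinates of mm10). Of the 93, 40 were listed as liver-specific, 8 as widely expressed and 45 as neither.

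All tumours came from FVB mice that carried 2 transgenes, LAP-tta, in which a liver promoter drives an activator that doxycycline blocks, and TRE-MYC, the MYC gene under that activator. Tumours formed once doxycycline was withdrawn and were collected at death. Homo tumours (n = 3, about 100 days old) carried Alb-cre and were Arid1aflfl, so both floxed Arid1a alleles were exposed to Cre. Het tumours (n = 3, about 70 days) carried Alb-cre and were Arid1afl/+, with 1 floxed allele. Arid1a encodes a DNA-binding subunit of the BAF chromatin remodelling complex. WT tumours (n = 4, about 55 days) were Arid1aflfl without Alb-cre, so their floxed alleles met no Cre. Age and the presence of Cre therefore cannot be told apart from genotype. Cre was driven by the albumin promoter, which is active in hepatocytes and their precursors, so other cells of the tumour keep Arid1a. Frozen tumour tissue was used. Fewer hepatocyte-like cells and a less open gene in each cell thus cannot be told apart in any result here. Nothing in the labels says that each library came from a separate mouse, so p-values measure the spread between libraries, which may be technical.

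Cytochrome P450 enzymes are heme proteins that insert oxygen into their substrates. The liver uses them to clear drugs and foreign compounds (the Cyp1, Cyp2 and Cyp3 families), to hydroxylate fatty acids (Cyp4), and to turn cholesterol into bile acids (Cyp7a1, Cyp8b1, Cyp27a1). Others act outside the liver, in steroid hormone synthesis, in vitamin D and retinoic acid metabolism or in the brain. In mice many of the liver enzymes lie in tandem gene clusters, and their high expression is a mark of mature hepatocytes.

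A peak within 1 kb of either end of the gene, called a gene-end peak below, was found for 9 of the 93 P450 genes in at least 1 library. The same was true of 42.6% of all protein-coding genes. These 9 were Cyp20a1, Cyp39a1, Cyp46a1, Cyp2u1, Cyp2j5, Cyp2c68, Cyp2c70, Cyp2d26 and Cyp17a1. By genotype, 6 P450 genes had such a peak in at least 1 Homo library, 2 in at least 1 Het library and 7 in at least 1 WT library, against 38.3%, 29.2% and 40.5% of all genes. None of the 93 had one in every Homo library, Cyp20a1 had one in every Het library, and Cyp20a1 and Cyp39a1 had one in every WT library. Of all genes, 4.43%, 7.09% and 23.4% did. None of the 93 had one in all 10 libraries, against 2.27% of all genes. The other 84 genes had no gene-end peak in any library. Among them were Cyp7a1, the rate-limiting enzyme of classical bile acid synthesis, Cyp8b1, the sterol hydroxylase needed for cholic acid, and the drug-metabolising Cyp1a2, Cyp2e1 and Cyp3a11. A missing peak means only that none was called. At the background of each list, a summit needed between 5 and 10 overlapping tags, or a fold of 3.83 to 4.60, to be called.

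A P450 gene with a peak was usually Cyp20a1, Cyp39a1 or Cyp46a1. These 3 genes held 20 of the 27 gene-end calls made over all members and libraries. Of the other 6 genes, Cyp2u1 was called in 2 libraries and the remaining 5 in a single library each.

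**Figure D1:**
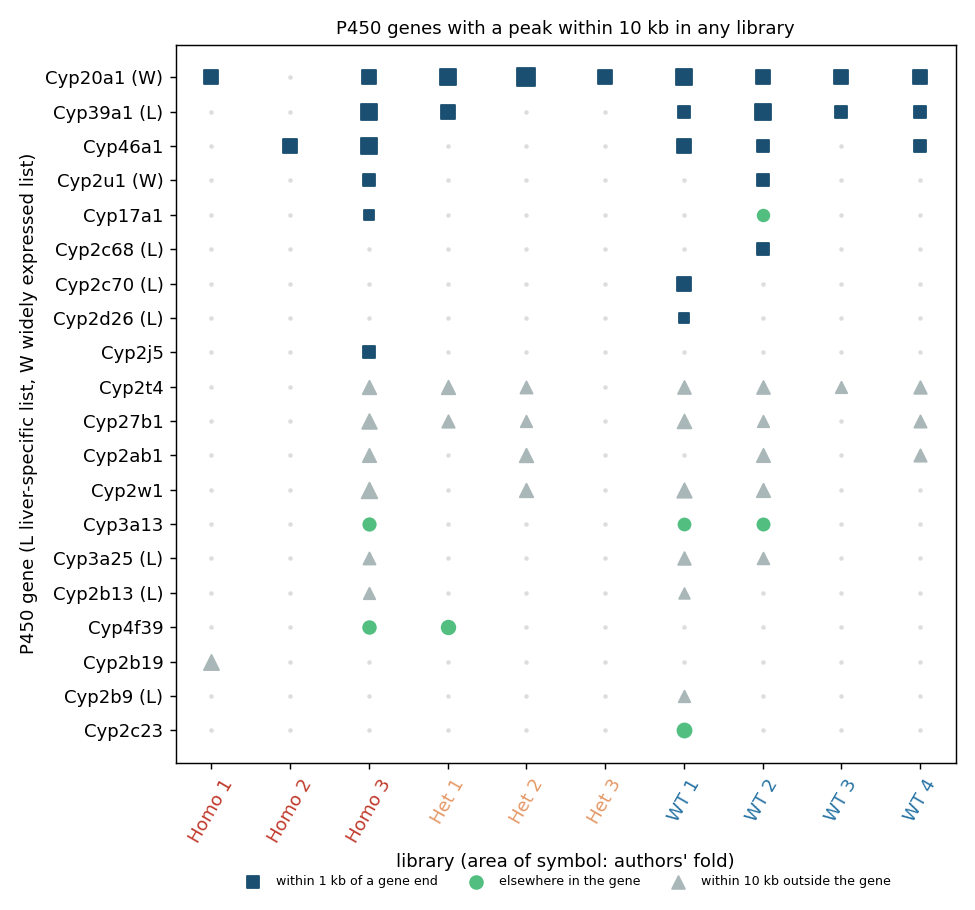
The 20 P450 genes with a peak in the gene or within 10 kb of it (rows) in each of the 10 libraries (columns), with symbol shape for the position of the peak and symbol area for the authors' fold. Squares run along the Cyp20a1 row in 9 of 10 libraries, while most lower rows are filled mainly in Homo 3, WT 1 and WT 2.

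Promoter sequences show how different these genes are at their starts. The stretches below run from 250 bases before to 50 bases after the start in RefSeq (GRCm38.p6), 5′ to 3′ on the strand of the gene, and capitals mark each CG dinucleotide and each TATAAA. Cyp20a1 (chr1:60343050-60343349, plus strand) and Cyp46a1 (chr12:108334066-108334365, plus strand) are shown because they had peaks at their starts in several libraries.
Cyp20a1: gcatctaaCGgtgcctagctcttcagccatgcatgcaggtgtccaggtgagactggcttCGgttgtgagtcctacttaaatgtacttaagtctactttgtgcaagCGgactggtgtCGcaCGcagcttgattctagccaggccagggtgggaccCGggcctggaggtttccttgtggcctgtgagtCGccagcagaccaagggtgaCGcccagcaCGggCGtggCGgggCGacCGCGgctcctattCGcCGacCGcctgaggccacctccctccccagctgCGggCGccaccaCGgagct
Cyp46a1: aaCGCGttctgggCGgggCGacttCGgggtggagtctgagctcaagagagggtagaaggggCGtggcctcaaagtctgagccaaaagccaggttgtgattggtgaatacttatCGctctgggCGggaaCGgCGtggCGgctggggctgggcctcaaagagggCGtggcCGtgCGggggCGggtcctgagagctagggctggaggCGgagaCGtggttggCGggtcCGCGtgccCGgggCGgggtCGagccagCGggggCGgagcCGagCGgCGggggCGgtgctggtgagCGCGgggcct
Cyp20a1 has 20 CG dinucleotides in this window and Cyp46a1 has 31, and neither holds TATAAA on the strand of the gene.

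Cyp2c70 (chr19:40187237-40187536, minus strand) is shown as a liver-specific gene with few CG dinucleotides and a peak over its start in WT 1. Cyp2e1 (chr7:140763569-140763868, plus strand) and Cyp8b1 (chr9:121916256-121916555, minus strand) are shown as examples of liver-specific genes with no peak. Cyp26a1 (chr19:37697558-37697857, plus strand), which breaks down retinoic acid, is shown as a liver-specific gene rich in CG with no peak.
Cyp2c70: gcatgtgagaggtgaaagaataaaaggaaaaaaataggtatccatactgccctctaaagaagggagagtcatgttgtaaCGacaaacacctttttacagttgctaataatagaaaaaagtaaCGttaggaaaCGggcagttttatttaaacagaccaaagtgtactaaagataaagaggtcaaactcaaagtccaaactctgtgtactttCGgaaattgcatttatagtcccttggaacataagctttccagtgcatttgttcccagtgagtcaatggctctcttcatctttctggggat
Cyp2e1: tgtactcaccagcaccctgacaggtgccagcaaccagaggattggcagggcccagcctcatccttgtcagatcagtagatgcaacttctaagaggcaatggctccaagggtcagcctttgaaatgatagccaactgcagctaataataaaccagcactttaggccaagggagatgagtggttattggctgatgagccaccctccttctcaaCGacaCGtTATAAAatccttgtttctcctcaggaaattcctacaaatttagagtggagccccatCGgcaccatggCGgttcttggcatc
Cyp8b1: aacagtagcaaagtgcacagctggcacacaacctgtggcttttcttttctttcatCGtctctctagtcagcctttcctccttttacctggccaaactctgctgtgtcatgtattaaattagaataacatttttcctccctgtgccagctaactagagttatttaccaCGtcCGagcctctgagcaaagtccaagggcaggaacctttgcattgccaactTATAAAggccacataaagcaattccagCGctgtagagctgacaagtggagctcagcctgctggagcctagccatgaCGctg
Cyp26a1: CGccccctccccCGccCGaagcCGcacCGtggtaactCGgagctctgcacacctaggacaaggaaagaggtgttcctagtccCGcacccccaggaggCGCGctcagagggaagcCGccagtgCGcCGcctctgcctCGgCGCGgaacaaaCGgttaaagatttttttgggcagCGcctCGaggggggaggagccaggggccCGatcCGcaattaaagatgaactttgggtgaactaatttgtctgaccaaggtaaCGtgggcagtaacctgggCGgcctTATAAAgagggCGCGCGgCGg
Cyp2c70 and Cyp2e1 each have 4 CG dinucleotides, Cyp8b1 has 5 and Cyp26a1 has 26. In Cyp2e1 and Cyp8b1 the first base of TATAAA lies 31 bases before the start, and in Cyp26a1 TATAAA lies after it.

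Among the widely expressed genes, Cyp20a1 carried nearly all of the signal. Cyp20a1 encodes a P450 whose substrate is not established (chromosome 1, 60343300 to 60388060). Its peak was called in Homo 1 and Homo 3 with folds of 8.40 and 8.24, and not in Homo 2. In Het 1, Het 2 and Het 3 the folds were 10.5, 11.6 and 7.22, and in WT 1 to WT 4 they were 9.14, 8, 7.30 and 7.52. Folds are the authors' own values, summit tags plus 1 over local background plus 1, and serve to describe a peak within its list. The summits lay between -50 and 228 bp from the start, where negative is before it. Ranked by −log10 p within each list, where 100 is the strongest, the Cyp20a1 peak stood at 88.2 and 70.7 in the 2 Homo lists and at 94.4, 96.2 and 71.2 in Het. In WT it stood at 89.7, 79.8, 76.7 and 68.9. Presence in 2 of 3 Homo against 4 of 4 WT libraries did not pass the test (exact permutation p = 0.429, adjusted over all genes 0.674).

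Cyp2u1, a fatty acid hydroxylase of many tissues (chromosome 3, 131290491 to 131304157), had a weak peak in Homo 3 and in WT 2. The folds were 4.98 and 5.22, and the rank percentiles 3.90 and 4.22. The peaks lay at 131303141 to 131303405 in Homo 3 and at 131303039 to 131303332 in WT 2, inside the gene near its higher end. The other 6 genes of this list had no peak within 10 kb in any library. They were Cyp27a1, the mitochondrial sterol 27-hydroxylase, Cyp2r1, a vitamin D 25-hydroxylase, Cyp4v3, a fatty acid hydroxylase, Cyp2j6, Cyp4f13 and Cyp4f16. The nearest region lay between 18228 bp (Cyp4f13) and 367406 bp (Cyp4v3) away.

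Of the 40 liver-specific genes, 4 had a gene-end peak in any library, and Cyp39a1 made up 6 of their 9 calls. Cyp39a1, an oxysterol hydroxylase of bile acid synthesis (chromosome 17, 43667372 to 43751431), was called in Homo 3 with a fold of 9.12 and in neither other Homo library. It was called in Het 1 with a fold of 7.07, and in WT 1 to WT 4 with folds of 5.65, 9.59, 5.70 and 6.04. All WT libraries thus had the peak, against 1 of 3 Homo (exact permutation p = 0.143, adjusted 0.527) and 1 of 3 Het (exact permutation p = 0.143, adjusted 0.468). This region, 43666976 to 43667517 over all libraries, also lies within 1 kb of an end of Slc25a27, a mitochondrial carrier gene. The peak cannot be given to Cyp39a1 alone.

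The other 3 liver-specific genes with a gene-end peak were called in single WT libraries. Cyp2c70, which makes the muricholic acids of mouse bile, had a peak in WT 1 at 40187196 to 40187574 on chromosome 19. Its fold of 7.24 and rank percentile of 51.8 made it a mid-strength peak, and the interval covers the whole promoter window printed above. Cyp2c68 had a peak in WT 2 (fold 6.02, rank percentile 15.6), with the summit at -57 bp from its start. Cyp2d26 had a peak in WT 1 (fold 4.37, rank percentile 0.388), among the weakest of that list.

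Of the genes on neither list, Cyp46a1 was called most often. It encodes the cholesterol 24-hydroxylase known from neurons (chromosome 12, 108334268 to 108362234). Its peak had folds of 7.37 in Homo 2 and 9.16 in Homo 3, was absent from the 3 Het lists, and had folds of 7.11, 5.60 and 6.37 in WT 1, WT 2 and WT 4. Presence in 0 of 3 Het against 3 of 4 WT libraries did not pass the test (exact permutation p = 0.143, adjusted 0.468), and neither did 2 of 3 Homo against 0 of 3 Het (exact permutation p = 0.400, adjusted 1). Homo 2, the library with the fewest peaks, had Cyp46a1 as its only P450 gene-end peak and was the 1 library without the Cyp20a1 peak. Cyp2j5, an arachidonic acid epoxygenase, had a peak in Homo 3 with its summit at -995 bp from the gene's higher end (fold 6). The RefSeq start of Cyp2j5 lies 52 bp inside that end. Cyp17a1, the steroid 17-hydroxylase, had a weak peak in Homo 3 (fold 4.19) that only just reached the 1 kb window, and the call was lost when the summit had to lie inside it. WT 2 had an overlapping peak (46668239 to 46668552 on chromosome 19, fold 5.19) just beyond the window, so the region was called in both genotypes.

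**Figure D2:**
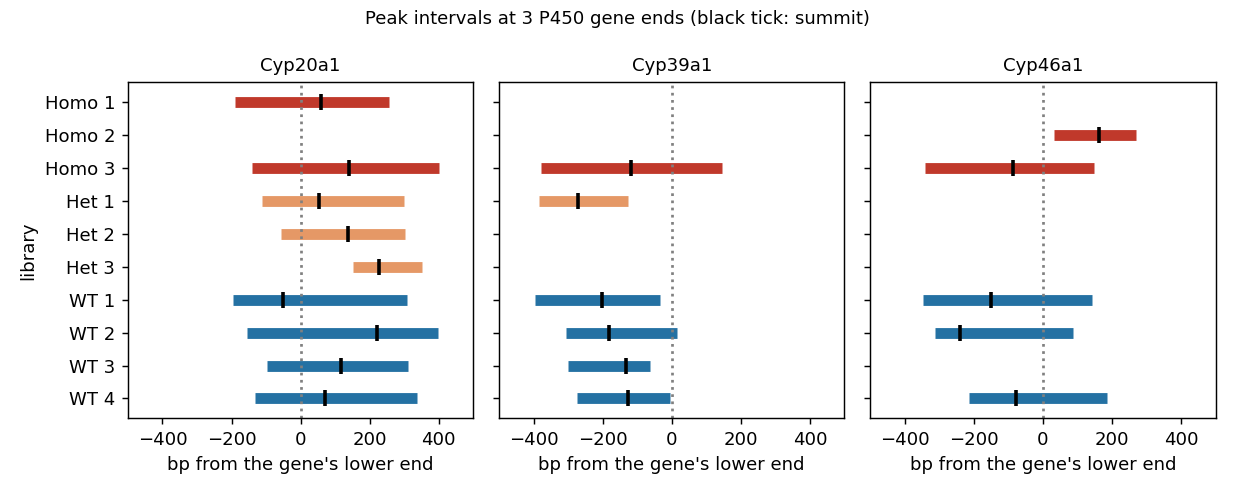
Peak intervals at the lower-coordinate ends of Cyp20a1, Cyp39a1 and Cyp46a1, as distance in bp from that end (x axis) for each library (y axis), with black ticks at summits. Cyp20a1 intervals straddle or follow the gene end in 9 libraries, while Cyp39a1 intervals lie mostly outside the gene.

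Set against each other, 13.8% of the widely expressed and 2.25% of the liver-specific genes had a gene-end peak in an average library. Over all protein-coding genes the mean was 24.5%, so both lists lay below it. The difference was 11.5 ± 6.48 percentage points (SD over 10 libraries). It was above 0 in 9 libraries and 0 in Homo 2, where neither list had a peak. With 8 genes on the first list, 1 gene is worth 12.5 points, and without Cyp20a1 the difference was 0.607. The contrast between the lists therefore rests on Cyp20a1, which had 9 of the 11 calls of its list. By genotype the difference was 11.7 ± 11.3 points in Homo, 11.7 ± 1.44 in Het and 11.2 ± 6.29 in WT. These group means lie far closer together than the libraries within the Homo or WT group. The lists were chosen with earlier results of these data known, so no test was made of them.

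As a family, P450 genes had gene-end peaks less often than all genes in each of the 10 libraries. The share of P450 genes was between 0.0541 and 0.174 of the share of all genes, with a median of 0.0988. In Homo 1, Homo 2 and Homo 3 the counts were 1, 1 and 6 of 93 genes. The 3 Het libraries had 2, 1 and 1, and WT 1 to WT 4 had 5, 5, 2 and 3. Both the highest count and some of the lowest came from Homo tumours, so the groups overlap. The means were 2.67 ± 2.89 genes in Homo, 1.33 ± 0.577 in Het and 3.75 ± 1.5 in WT (SD). Over all genes the shares were 19.9% ± 15.5 in Homo, 18.2% ± 6.99 in Het and 32.6% ± 3.33 in WT, lowest in Het and highest in WT, as were the P450 counts.

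**Figure D3:**
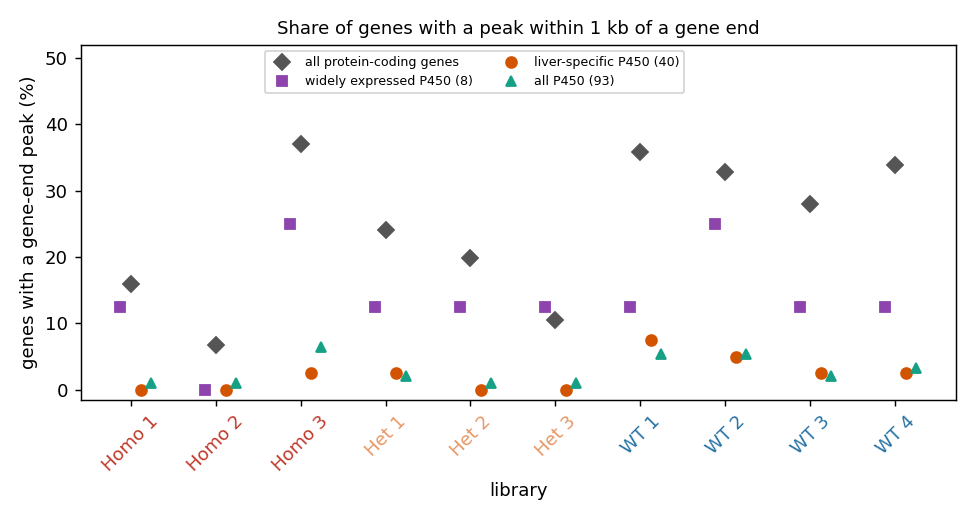
Percent of genes with a gene-end peak (y axis) in each library (x axis), for the 8 widely expressed, 40 liver-specific and all 93 P450 genes and for all protein-coding genes. The triangles for all P450 genes stay at or below 6.45% in every library, below the diamonds for all genes, which range from 6.79% to 37.0%.

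Depth moved with these counts. The lists held 1748 to 9587 peaks, and the background recovered from them ranged from 0.464 tags per 200 bp in Homo 2 to 1.75 in WT 1. With all lists thinned to the depth of Homo 2, P450 counts were 1.33 ± 0.577 in Homo, 1.33 ± 0.577 in Het and 2.75 ± 1.26 in WT. The share of P450 genes was then 2.04% over all libraries, against 17.4% of all genes. By genotype the share of all genes at this depth was 13.9% in Homo, 16.1% in Het and 21.1% in WT, likewise highest in WT. Of 12 hepatocyte marker genes, 8 had a gene-end peak in any library, against 42.6% of all genes. In an average library the markers stood lower than all genes, at 19.2% against 24.5%. The marker counts were 0, 0 and 6 in Homo 1 to Homo 3, 2, 1 and 0 in Het 1 to Het 3, and 5, 6, 1 and 2 in WT 1 to WT 4. Like the P450 counts, they were highest in Homo 3, WT 1 and WT 2. Apoc3, Serpina1a, Fga and Tat had none. Of 42 markers of other cell types, 4 had a gene-end peak, namely Epcam, Nfe2, Onecut1 and Spi1. Onecut1 is also on the list of P450 regulators used below, so it does not mark another cell type alone. The part of depth and of cell make-up in the P450 counts was not tested beyond these values.

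Gene by gene, presence of a gene-end peak was compared between genotypes over all protein-coding genes with at least 1 call and at least 1 gap. In Homo against WT, 0 P450 genes out of 9 tested passed an adjusted p of 0.05 in the exact permutation test, against a background of 0% of 8280 genes. In Het against WT it was 0 of 6, against 0% of 7464 genes. In Homo against Het it was 0 of 6, against 0% of 8021 genes. At an unadjusted p under 0.05 there were also 0 P450 genes in each comparison, where 0.35% of the genes tested passed in Homo against WT, 6.38% in Het against WT and 0% in Homo against Het. Fisher's exact test gave 0 calls after adjustment as well. With 4 against 3 libraries p cannot go below 0.0286, and with 3 against 3 it cannot go below 0.1. A p under 0.05 therefore needed a call in all libraries of 1 genotype and in none of the other. Few P450 genes were called in every library of a genotype, so few could reach it. No P450 gene was called in all libraries of 1 genotype and in none of another, a pattern that 0.129% of all genes had as closed in Homo against WT and 2.2% as closed in Het against WT. The reverse pattern was found in 0.00462% of all genes in each of these comparisons. In Homo against Het, 0.0139% of all genes were called in no Homo and every Het library, and 0.139% in every Homo and no Het library. Homo against WT and Het against WT share the WT libraries.

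The wider window, the gene plus 10 kb on each side, took in 20 of 93 P450 genes, against 55.5% of all genes. These 20 genes met 21 distinct regions, of which 7 were called in 1 library, 9 in 2 to 4 and 5 in 5 or more. Homo 3 held 15 of the 21 regions, WT 1 held 14 and WT 2 held 12, while Homo 1, Homo 2 and Het 3 held 2, 1 and 1. The number of P450 genes with such a peak was 5.67 ± 7.23 in Homo, 3.67 ± 2.31 in Het and 8.5 ± 4.80 in WT, and the groups overlap. Over all genes the shares in this window were 27.5% ± 19.8 in Homo, 25.9% ± 9.48 in Het and 44.1% ± 4.17 in WT, in the same order. In the per-gene test on this window, again 0 P450 genes passed after adjustment, with a smallest exact permutation p of 0.143 and 0% of all genes called. At an unadjusted p under 0.05 there were 0 P450 genes too, against 0.268% of genes in Homo against WT, 5.92% in Het against WT and 0% in Homo against Het. None of the 20 was called in all libraries of 1 genotype and in none of another. As closed in Homo or Het against WT, 0.125% and 2.55% of all genes were, and as open, 0.00462% in each of them. In Homo against Het these shares were 0.0231% closed and 0.217% open.

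Many of these regions sit at other genes. Of the 21, 9 lay at an end of a P450 gene and 6 at an end of another protein-coding gene, with the Cyp39a1 region counted in both. The Cyp2t4 window held a region at Egln2, a prolyl hydroxylase of hypoxia signalling, in 1 of 3 Homo, 2 of 3 Het and 4 of 4 WT libraries. Around Cyp27b1, which makes active vitamin D, 1 region lay at Cdk4, the cell cycle kinase, in 6 libraries. A second lay at Eef1akmt3 and Mettl1 in 3 libraries. The region near Cyp2w1 was at Cox19, a factor of cytochrome oxidase assembly, and that near Cyp2ab1 was at Parl, a mitochondrial protease, each in 4 libraries. These 4 P450 genes had no peak of their own at a gene end.

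The 7 regions at no gene end included a start inside a gene. Cyp3a13, a member of the drug-metabolising Cyp3a family (chromosome 5, 137892933 to 137925610), had a peak in Homo 3, WT 1 and WT 2 with folds of 5.90, 5.49 and 5.68. RefSeq places a start of Cyp3a13 at 137921619, which is 3991 bp inside the gene's higher end, and this peak lay within 1 kb of it. Of 83 P450 starts in the promoter table, 8 lay over 1 kb from both gene ends, and Cyp3a13 was the 1 gene without a gene-end peak that had a peak at such a start. Cyp3a25 had a region in its flank in Homo 3, WT 1 and WT 2, and Cyp2b13 in Homo 3 and WT 1. Cyp4f39, which makes omega-hydroxylated fatty acids for the skin barrier, had a peak in its body in Homo 3 and Het 1. Cyp2b9 and Cyp2c23 each had 1 region in WT 1.

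Tandem clusters held few of the peaks at gene ends. A cluster was taken as at least 3 P450 genes with gaps of at most 100 kb, and 51 of the 93 genes lay in 10 such clusters. Only the 93 genes set the cluster limits. The naming rule leaves out symbols that end in a letter, such as Cyp3a41a and Cyp3a41b. Of these 51, 3 had a gene-end peak (Cyp2j5, Cyp2c68 and Cyp2c70), against 6 of the 42 genes outside clusters. The clusters spanned 3095 kb in all and held 9 regions, or 2.91 per Mb, against 4.66 per Mb over the genome. The clusters from Cyp2j11 to Cyp2j5, from Cyp4a14 to Cyp4b1 and from Cyp2c55 to Cyp2c66 held no region in any library, and the Cyp2j5 peak lies just outside its cluster. Near-identical copies add a limit: 20 of the 73 P450 genes with a promoter sequence share at least 1 stretch of 50 bases with another gene's promoter. Cyp2b9 and Cyp2b13 share 61.0% of such stretches with each other, and Cyp2a4 and Cyp2a5 share 30.7%. How reads from such copies were placed is not given in the sources used here, and 1 of the 20, Cyp2c68, had a gene-end peak.

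P450 promoters, and liver-specific ones most of all, were poor in CG dinucleotides. The ratio of observed to expected CG dinucleotides over the 300 bases had a median of 0.167 in P450 genes, against 0.586 in all genes with a promoter sequence. The medians were 0.436 in 7 widely expressed and 0.125 in 33 liver-specific genes. A ratio of 0.6 or more was found in 6 P450 genes: Cyp20a1, Cyp46a1, Cyp26a1, Cyp2r1, Cyp4v3 and Cyp1b1. Of these 6, Cyp20a1 and Cyp46a1 had a gene-end peak, while 72.9% of all genes in this class did. Among P450 genes below 0.6, 4 of 67 had one (5.97%), against 15.7% of all genes in that class. In both classes the P450 share was the lower one, and these shares are descriptions with no test. They cover only 6 of the 9 P450 genes with a gene-end peak. Cyp39a1, Cyp2u1 and Cyp17a1 had no promoter sequence and are in neither class.

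**Figure D4:**
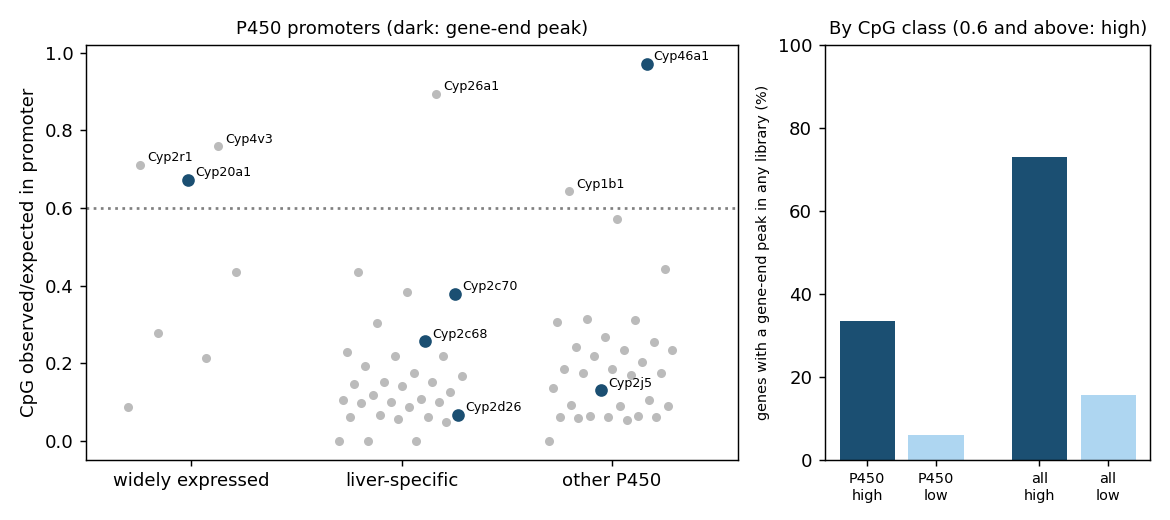
Left, ratio of observed to expected CG dinucleotides in the promoter (y axis) for the 73 P450 genes with a promoter sequence, by list. Dark points are genes with a gene-end peak in any library, and a dotted line lies at 0.6. Cyp39a1, Cyp2u1 and Cyp17a1 are not shown. Right, percent of genes with a gene-end peak in any library by CG class, where P450 genes stand at 33.3% and 5.97% and all genes at 72.9% and 15.7%.

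Motif letters were searched on both strands of the same 300 bases. TATAAA was present in 21 of 33 liver-specific promoters (63.6%) and 0 of 7 widely expressed ones, against 13.4% of all promoters. On the strand of the gene and starting 20 to 40 bases before the start, it was present in 8 of the 33, or 24.2%, against 2.87% of all promoters. AGGTCA, the half-site of many nuclear receptors, was in 36.4% of liver-specific and 14.4% of all promoters. GGGCGG, the GC box, was in 9.09% of liver-specific, 71.4% of widely expressed and 46.9% of all promoters. CACGTG, the E-box bound by MYC and MAX, was in 0 of 33 liver-specific and 2 of 7 widely expressed promoters, against 8.01% of all. CACGTG does not overlap the other motifs in its letters, and matches are descriptions, not sites. The median share of G and C bases was 47% in liver-specific, 55.3% in widely expressed and 56.3% in all promoters. The part of base content in these motif shares was not tested, and promoters of near-identical copies were each counted.

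Genes that serve the P450 enzymes had gene-end peaks more often than the P450 genes themselves. Of 9 electron transfer partners, 7 had a gene-end peak in at least 1 library, as did all 10 genes of heme synthesis and breakdown and 10 of 14 regulators. Of all protein-coding genes, 42.6% did. Fdx1, the ferredoxin of mitochondrial P450 enzymes, was called in 2 of 3 Homo, 2 of 3 Het and 4 of 4 WT libraries. Fdxr, its reductase, was called in 2 of 3, 1 of 3 and 4 of 4. Alad, the second enzyme of heme synthesis, was called in all 10 libraries, and Alas1, the rate-limiting first enzyme, in 3 of 3 Homo, 1 of 3 Het and 4 of 4 WT. Por, the reductase that feeds electrons to microsomal P450 enzymes, had no gene-end peak. It had a peak at a RefSeq start 19105 bp inside the gene, at 135689145 on chromosome 5, in 2 of 3 Homo, 3 of 3 Het and 4 of 4 WT libraries.

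Cyb5b, an outer mitochondrial cytochrome b5, and Urod, a heme synthesis enzyme, showed a complete split between Het and WT. Each was called in 0 of 3 Het and 4 of 4 WT libraries (exact permutation p = 0.0286, the smallest possible, adjusted 0.448). Cyb5b was called in 2 of 3 Homo and Urod in 1 of 3. Both had the pattern that 2.2% of all genes had in Het against WT. At gene ends some heme genes were called less often, with Cpox in 2 WT libraries and Hmox1 and Uros in 1 Homo library each. Within 10 kb, however, Hmox1 had a peak in 1 of 3 Homo, 2 of 3 Het and 4 of 4 WT libraries. Uros had one there in 2 of 3, 1 of 3 and 4 of 4.

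Among regulators, Cebpb was called in all 10 libraries and Cebpa in 2 of 3 Homo, 3 of 3 Het and 4 of 4 WT. Ppara, the fatty acid receptor that drives Cyp4a genes, and Arnt, the partner of the dioxin receptor, were each called in 1 of 3 Homo, 2 of 3 Het and 4 of 4 WT libraries. Ahr, the dioxin receptor itself, was called in 1 of 3, 2 of 3 and 2 of 4. Nr0b2, a repressor of Cyp7a1, was called in 2 of 3, 2 of 3 and 3 of 4. Nr1i2, the xenobiotic receptor PXR, had no peak within 10 kb in any library. Nr1i3, the related receptor CAR, had none at a gene end. Within 10 kb Nr1i3 had a peak in 1 of 3 Homo, 2 of 3 Het and 4 of 4 WT libraries. Both were chosen after their values were seen. In group means, electron transfer partners stood at 40.7% ± 33.9 in Homo, 40.7% ± 35.7 in Het and 72.2% ± 6.42 in WT. Heme genes stood at 46.7% ± 37.9, 30% ± 10 and 65% ± 17.3, and regulators at 33.3% ± 28.9, 35.7% ± 18.9 and 50% ± 5.83, in the same order of genotypes. All genes stood at 19.9% ± 15.5 in Homo, 18.2% ± 6.99 in Het and 32.6% ± 3.33 in WT, and were likewise highest in WT.

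**Figure D5:**
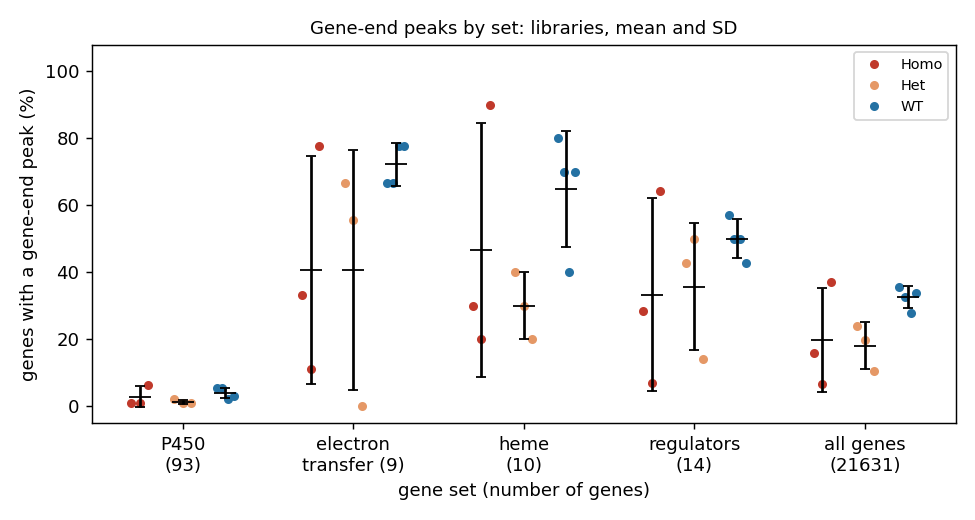
Percent of genes with a gene-end peak (y axis) for P450 genes, their electron transfer partners, heme genes, regulators and all genes, with a point per library and black bars for mean and SD in Homo, Het and WT. P450 points lie between 1.08% and 6.45%, below the points of the other sets apart from the lowest Het library of electron transfer partners, which is at 0.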

How the data were processed

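For each library the authors deposited a single narrowPeak list. The submitters' processing notes name Bowtie2, MACS2, deepTools and the mm10 build, without versions. How reads were filtered, and how those matching several copies were treated, was not given in these sources. Each deposited row holds a score, a fold (a ratio of summit tags to local background), a −log10 p and a −log10 q. The smallest −log10 p was between 5.00 and 5.63 in the lists.

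Peaks on autosomes and X were placed against RefSeq genes by an overlap of at least 1 bp, with gene-end windows of 1000 bp. Whole summit tags and background were recovered from fold and −log10 p (tolerance 0.001, 100% of rows), and depth was taken as the lowest background value found in 10 or more rows of a list, as read numbers were not given. Equal-depth lists come from 1 random thinning (seed 20). Presence was tested per gene by exact permutation of genotype, two-sided, with Benjamini-Hochberg adjustment over all genes tested. The code was tested on simulated data. Python 3.11.15, pandas 2.3.3, NumPy 2.4.6 and SciPy 1.17.1 were used.

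The members, the gene lists and the alternatives were chosen with earlier results of these data known. Every P450 gene with a gene-end peak was to be named, then up to 15 with a peak within 10 kb, and Cyp7a1, Cyp8b1, Cyp1a2, Cyp2e1 and Cyp3a11 whatever their values. Partner genes with a gene-end peak were eligible, and Por was named whatever its value. RefSeq promoter sequences (GRCm38.p6) matched 73 of 93 genes.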

Additional observations from a re-analysis of the deposited data

Results flagged for a closer look

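In WT, a single library stood apart from 3 tied ones in 3 of the 14 counts checked, which gives a ratio of gap to range of 1 each time. Chance gives about 1 such result in 20 groups, and more with small whole numbers. For widely expressed genes, at gene ends and within 10 kb alike, WT 2 had 2 genes (Cyp20a1 and Cyp2u1) and each other WT library had 1, so these are 1 call of Cyp2u1 seen in both windows. For genes on neither list, WT 3 had 0 at a gene end, for want of the Cyp46a1 peak, and each other WT library had 1.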

How the results depend on the processing

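The 9 P450 genes with a gene-end peak became 5 at a −log10 p of at least 10, 5 at equal depth and 3 (Cyp20a1, Cyp39a1 and Cyp46a1) among the 1748 strongest peaks of each list. At equal depth the 5 were Cyp20a1, Cyp46a1, Cyp2d26, Cyp39a1 and Cyp2c68. These names come from 1 random thinning, and another draw could keep others. In WT 1 the Cyp2d26 peak with 11 summit tags was kept and the Cyp2c70 peak with 20 was lost. Leaving out single libraries gave 7 to 9. The 20 genes with a peak within 10 kb became 13 within 5 kb and 5 among the strongest peaks, and 16 to 20 without single libraries. The mean difference in P450 genes with a gene-end peak was -1.08 for Homo minus WT (-2.75 without Homo 3, -0.25 without Homo 1 or Homo 2, -0.667 without WT 1 or WT 2, -1.67 without WT 3), -2.42 for Het minus WT (-3 to -2) and 1.33 for Homo minus Het (-0.333 without Homo 3, 2.17 without Homo 1 or Homo 2). Among the strongest peaks Homo minus WT turned to 0.333 and Het minus WT was 0. Homo minus WT was -1.83 with a window of 500 bp and -0.5 at a −log10 p of at least 10. Het minus WT was -1.17 at that −log10 p and -1.42 at equal depth. Homo minus Het was 0 at equal depth, 0.333 with a window of 500 bp and among the strongest peaks, and 0.667 at that −log10 p. The widely expressed minus liver-specific difference of 11.5 points was 10.3 to 12.8 without single libraries, 0.607 without Cyp20a1 and 2.09 without both Cyp20a1 and Cyp39a1; leaving out genes was chosen after seeing the data. Except where another value is given, causes were not tested. With a replicate block over same-numbered libraries the 3 differences were -1.33, -2.67 and 1.33 and no gene was called. The numbers share nothing in the labels, and deviations of same-numbered libraries correlated at -0.350 to 0.0616. The per-gene test made 0 calls after adjustment under every alternative run. In Homo against Het none was possible, since p cannot go below 0.1. Against WT, p can reach 0.0286 only with 4 WT libraries against 3 of the other genotype. A call would then have needed many more genes at that p. Without 1 WT library the comparison is 3 against 3, so p cannot go below 0.1 and no call was possible. Without 1 Homo or Het library, or with the replicate block, too few arrangements remain for any call. The 0 calls under these alternatives therefore decide nothing.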

Other observations

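Cyp2b19, a P450 known from keratinocytes, had a region 7281 bp beyond its higher end in Homo 1 and in no other library (chromosome 7, 26779911 to 26780119). Its fold was 8.76 and its rank percentile 86.4, the highest of the regions called in a single library here. This gene was chosen after its values were seen.

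Of the P450 genes whose symbols the naming rule leaves out, only Cyp51, Tbxas1 and Ptgis were looked at, and they also differed among themselves. Cyp51, the sterol demethylase of cholesterol synthesis, had a gene-end peak in 1 of 3 Homo, 1 of 3 Het and 3 of 4 WT libraries. Tbxas1, thromboxane synthase, had none at a gene end but had a peak within 10 kb in 3 of 3 Homo, 2 of 3 Het and 4 of 4 WT libraries. Ptgis, prostacyclin synthase, had none. The P450 gene farthest from any region was Cyp7b1, an oxysterol hydroxylase, at 918954 bp.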
